A study of Mus musculus with 168 samples.

Results

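MicroRNA levels in the cortex of 10-month-old mice carrying the longest huntingtin CAG repeat of the series, Q175, were compared with those of control mice of the same age. The members are the cortex libraries whose titles give Q175, Q20 or WT together with 10 months, 24 of the 168 cortex libraries of the series. They comprise 8 heterozygous Q175 knock-in mice, 8 heterozygous Q20 knock-in mice and 8 wild-type (WT) mice. The knock-in alleles carry a CAG tract of the named length class in the endogenous mouse huntingtin gene (Htt), and all lines are on a C57BL/6 background. The Q175 line arose by spontaneous expansion of the Q140 line, the Q20 allele has a repeat in the normal human range, and the WT mice are littermates from the Q20 colony. The 16 Q20 and WT mice served jointly as controls. Cage and lane are inferred here from codes in the sample descriptions. By these codes all 8 Q175 mice came from 2 cages and all 16 controls from 2 other cages, with 1 cage per sex. Genotype, line and cage therefore cannot be told apart. Small RNA does not report the Htt transcript, so the targeted gene could not be used to check the genotype labels. The title of 1 Q20 library gives female although the other libraries with its cage code are labelled male, and it was treated as male. Whether the title or the code is in error is not known. Each library comes from 1 mouse, and p-values measure the spread between these mice.

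MicroRNAs are short RNAs that guide Argonaute proteins to messenger RNAs and lower their translation or stability. Pairing runs mainly through the seed, bases 2 to 8 of the mature strand, so that loci with the same seed form a family that can act on overlapping sets of transcripts. Loci that lie close together are often cut from 1 primary transcript and can therefore share their transcriptional control. In cortex, the Mir132/Mir212 pair responds to neuronal activity through CREB, Mir124, Mir128 and Mir9 are enriched in neurons, and Mir221/Mir222 and Mir15/Mir16 are known as regulators of the cell cycle and of survival. Huntington's disease is caused by the CAG expansion in HTT, and the cortex and striatum are among the affected regions.

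The deposited values are estimated counts per transcript, and library totals ran from 2041741 to 6047532. Totals were 4153835 to 6047532 in Q175 and 2041741 to 5223075 in controls. Of the names on the study's list of microRNAs, 329 were matched to transcripts and 327 had at least 1 count in these libraries. Those transcripts held 65.7% to 68.6% of the counts of a library, and all transcripts named as microRNAs held 94.5% to 97.4%. The microRNAs outside the list, among them Mir127 and Mir22, are described separately below. The neuron-enriched list (13 microRNAs, none at 0 in either group) summed to between 101075 and 126152 CPM (counts scaled to a common library size with TMM factors) in every library, against 999.8 to 1231 CPM for the liver list. The Q20 libraries M2 and F1 stood apart from the rest, with standardized connectivity of -6.48 and -5.26, and M2 was also the shallowest. Q175 and control libraries were spread over the same 3 lanes. No pair of libraries of 1 genotype was alike within counting noise.

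The mature sequences below belong to the microRNAs on which the results turn. They are from RefSeq (GRCm38.p6), which held a mature sequence for 310 of the 327 microRNAs tested and for 38 of the 40 that passed the test. Capitals mark the seed, bases 2 to 8 from the 5′ end. The first set shows lower members that share a seed in pairs.
mmu-miR-221-3p: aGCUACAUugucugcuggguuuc
mmu-miR-222-3p: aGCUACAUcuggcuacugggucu
mmu-miR-132-3p: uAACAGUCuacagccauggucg
mmu-miR-212-3p: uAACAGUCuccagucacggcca
mmu-miR-128-3p: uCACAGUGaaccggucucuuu

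Of the higher microRNAs, those of the Mir15/Mir16/Mir195, Mir17 and Mir181a groups share a seed with another called one and are shown next, with Mir92. The strands of the Mir15/Mir16/Mir195 group share 1 seed, and those of Mir17 and Mir20a share another.
mmu-miR-15a-5p: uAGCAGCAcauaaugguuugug
mmu-miR-15b-5p: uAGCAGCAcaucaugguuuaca
mmu-miR-16-5p: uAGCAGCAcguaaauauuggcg
mmu-miR-195a-5p: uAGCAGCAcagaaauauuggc
mmu-miR-17-5p: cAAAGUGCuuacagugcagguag
mmu-miR-20a-5p: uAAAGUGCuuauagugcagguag
mmu-miR-92a-3p: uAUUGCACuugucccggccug
mmu-miR-181a-5p: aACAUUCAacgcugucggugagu

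The remaining sequences show Mir615 and Mir135b, which had the smallest p-values, and let-7i, the only called member of its family. For Mir135b only the 3′ strand was at hand, so the seed of its 5′ strand is not shown.
mmu-miR-615-3p: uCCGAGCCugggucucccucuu
mmu-miR-135b-3p: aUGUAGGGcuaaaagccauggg
mmu-let-7i-5p: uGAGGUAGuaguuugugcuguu

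In Q175 cortex 40 of the 327 microRNAs tested were differentially expressed (DE) at a false discovery rate (FDR) under 0.05, which is 12.2% (edgeR quasi-likelihood test with Benjamini-Hochberg adjustment, sex as covariate). Of these, 22 were lower (6.73% of those tested) and 18 were higher (5.5%). Most changes were small. The lower microRNAs fell by 10.4% to 72.4% with a median of 22.1%, and 16 of the 22 changed by less than 0.5 on the log2 scale. The higher ones rose by 6.04% to 362% with a median of 19.8%, and 17 of the 18 changed by less than 0.5 on that scale. The median log2 fold change over all microRNAs tested was -0.01, with a median SE of 0.09. For 5 microRNAs (1.53% of those tested) all 8 Q175 mice lay outside the range of the 16 controls: Mir135b, Mir221 and Mir222 below it, Mir615 and Mir181a-2 above it. The lower microRNAs together made up 7.72% ± 0.44 (SD, n = 16) of normalised counts in controls and 6.54% ± 0.28 (SD, n = 8) in Q175. The higher ones made up 11.96% ± 0.77 in controls and 14.05% ± 0.68 in Q175.

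**Figure D1:**
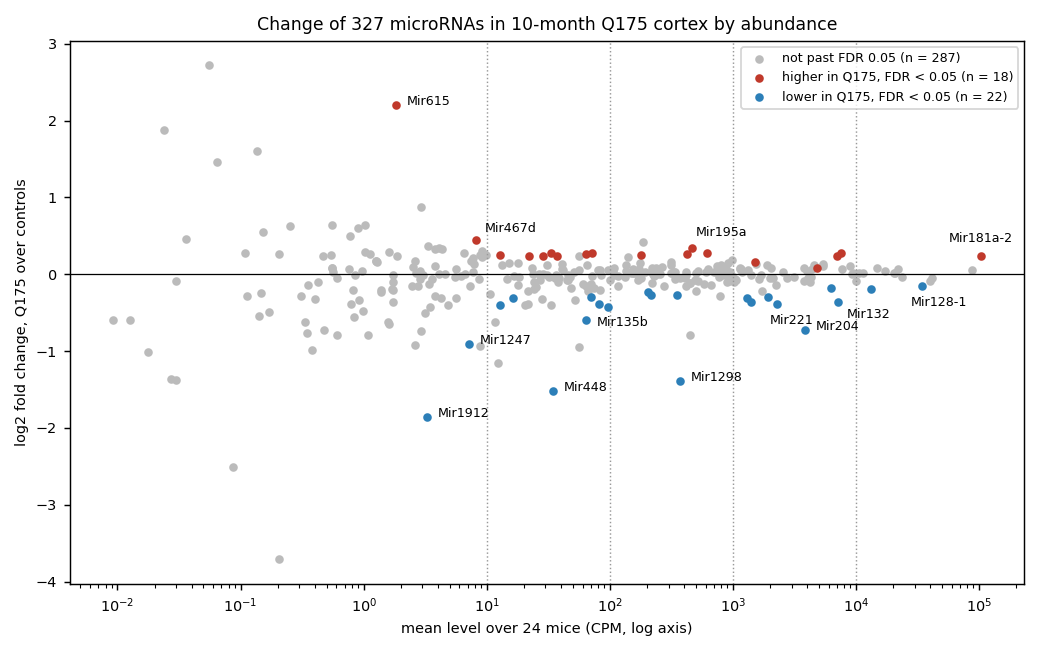
Log2 fold change of each of the 327 microRNAs tested (Q175 over controls, vertical axis) against its mean level over the 24 mice (CPM, log axis), with dotted lines at the edges of the abundance classes. The 18 microRNAs higher in Q175 (red) and the 22 lower (blue) spread over the whole range of levels. Mir615 stands alone among the called rises.

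Between the control genotypes, Q20 and WT, none of 325 microRNAs differed (0.0% at FDR under 0.05 by edgeR, 0 by DESeq2), and 12 had an unadjusted p under 0.05. Against Q20 mice alone 29 microRNAs differed in Q175, and against WT mice alone 22 differed. Within lane 6, with 3 Q175 and 7 control libraries, 5 passed the test: Mir135b, Mir132, Mir221 and Mir222 were lower and Mir615 was higher. Within lane 7, with 4 and 4, Mir135b was lower and Mir615 higher. Lane 8 held 1 Q175 library and was not tested alone. All 40 fold changes had the pooled sign in both lanes, although the 40 were chosen on libraries that include these.

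When each mouse was left out in turn, between 28 and 44 microRNAs passed, and 24 of the 40 calls passed in all 24 fits. The lowest count came without Q175 F3 and the highest without WT F2. The other 16 calls were lost at least once. Mir210 was lost without Q175 F3 (adjusted p = 0.0569) and Mir467d without Q175 M1 (adjusted p = 0.079). Mir15b was lost in 3 fits, with the highest adjusted p, 0.0674, without Q175 F3. Mir330 was also lost in 3 fits, with 0.0828 without Q175 F4, and Mir34a in 4, with 0.0739 without Q175 M3. Mir3061 was lost in 5 fits, Mir20a, Mir128-1 and Mir3102 in 6 each, Mir539 in 7 and Mir301b in 12. Mir1298, Mir204 and Mir1912 were lost in 14 fits each, Mir124a-3 in 16 and Mir300 in 21.

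Calls were unevenly spread over the abundance classes. Of 111 microRNAs under 10 CPM, 4 passed the test (3.60%), where the median SE of the log2 fold change was 0.31. In the class from 10 to 100 CPM 14 of 69 passed, 7 in each direction. From 100 to 1000 CPM 8 of 86 passed, 4 in each direction. From 1000 to 10000 CPM 11 of 47 passed, 7 of them lower. Of the 14 microRNAs at 10000 CPM and over, which held 68.7% of the CPM of all tested microRNAs, 3 passed: Mir181a-2 was higher, and Mir128-1 and Mir128-2 were lower. Next to these in level, Mir26a-2 (0.06, adjusted p = 0.402), Mir9-2 (-0.05, adjusted p = 0.617) and Mir30a (-0.08, adjusted p = 0.203) were not DE. The class limits how small a difference could be seen, since the median SE fell to 0.04 in the highest class. The share of calls did not follow the SE throughout. From 10 to 100 CPM 20.3% passed at a median SE of 0.08, and from 100 to 1000 CPM 9.30% at 0.06, against 12.2% over all tested. The largest fold changes among the calls were those of Mir615 under 10 CPM, Mir448 from 10 to 100, Mir1298 from 100 to 1000, Mir204 from 1000 to 10000 and Mir181a-2 above. Larger fitted changes under 10 CPM did not pass the test, the largest being Mir344d-3, at 0 in every Q175 library and at 0 to 15 counts in controls.

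Among the lower microRNAs, the Mir221/Mir222 pair changed in both members. The loci lie on the minus strand of the X chromosome at chrX:19146294-19146971 (mm10), outside the protein-coding and long noncoding genes of the annotation, and their 3′ strands share the seed printed above. Mir221 (ENSMUST00000083488) was at 2092 CPM at the lowest, 2461 at the median and 3019 at the highest in controls, and at 1759.5, 1880.0 and 2036 CPM in Q175. No Q175 mouse reached the lowest control. Its log2 fold change was -0.39 ± 0.05 (SE; adjusted p = 3.81e-06). Mir222 (ENSMUST00000083537) ran from 1868 through a median of 2038 to 2206 CPM in controls and from 1472 through 1682 to 1821 CPM in Q175, again without overlap (log2 fold change -0.30 ± 0.04, adjusted p = 6.81e-06). Summed, the pair stood at 4553 ± 307 CPM (SD, n = 16) in controls and 3527 ± 153 CPM (SD, n = 8) in Q175.

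The activity-regulated pair Mir212 and Mir132 was lower to the same degree. Both lie within an intron of the noncoding gene 1700016P03Rik at chr11:75173388-75173747. Mir132 (ENSMUST00000083603) was at 6225, 7722 and 9625 CPM (lowest, median and highest) in controls and at 5240.2, 6011 and 6448 CPM in Q175. One control, Q20 M2, lay within the Q175 range and all other controls lay above it. The log2 fold change was -0.36 ± 0.06 (adjusted p = 0.000121). Mir212 (ENSMUST00000083656) was at 1128, 1531 and 1728 CPM in controls and 1047, 1214 and 1257 CPM in Q175 (log2 fold change -0.36 ± 0.06, adjusted p = 4.52e-05), and WT M4 was the control inside the Q175 range. Mir134, the third member of the activity-regulated list, had a log2 fold change of -0.01 ± 0.05 and was not DE.

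Mir135b (ENSMUST00000083501, chr1:132198088-132198184, plus strand, in an intron of Lemd1) gave the smallest p among the lower microRNAs. Controls ranged from 55.5 to 88.0 CPM with a median of 69.1 and Q175 from 42.0 to 54.2 CPM with a median of 47.3, so that the groups did not overlap. The log2 fold change was -0.60 ± 0.07 (adjusted p = 1.32e-06). The other tested member of the family, Mir135a-2, changed by -0.17 ± 0.12 and did not pass. Mir674 (ENSMUST00000102421) completed the 6 lower microRNAs with the smallest p, at 326, 381 and 416 CPM in controls and 285, 308 and 348 CPM in Q175 (log2 fold change -0.26 ± 0.05, adjusted p = 0.00105), and 5 controls lay inside the Q175 range.

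**Figure D2:**
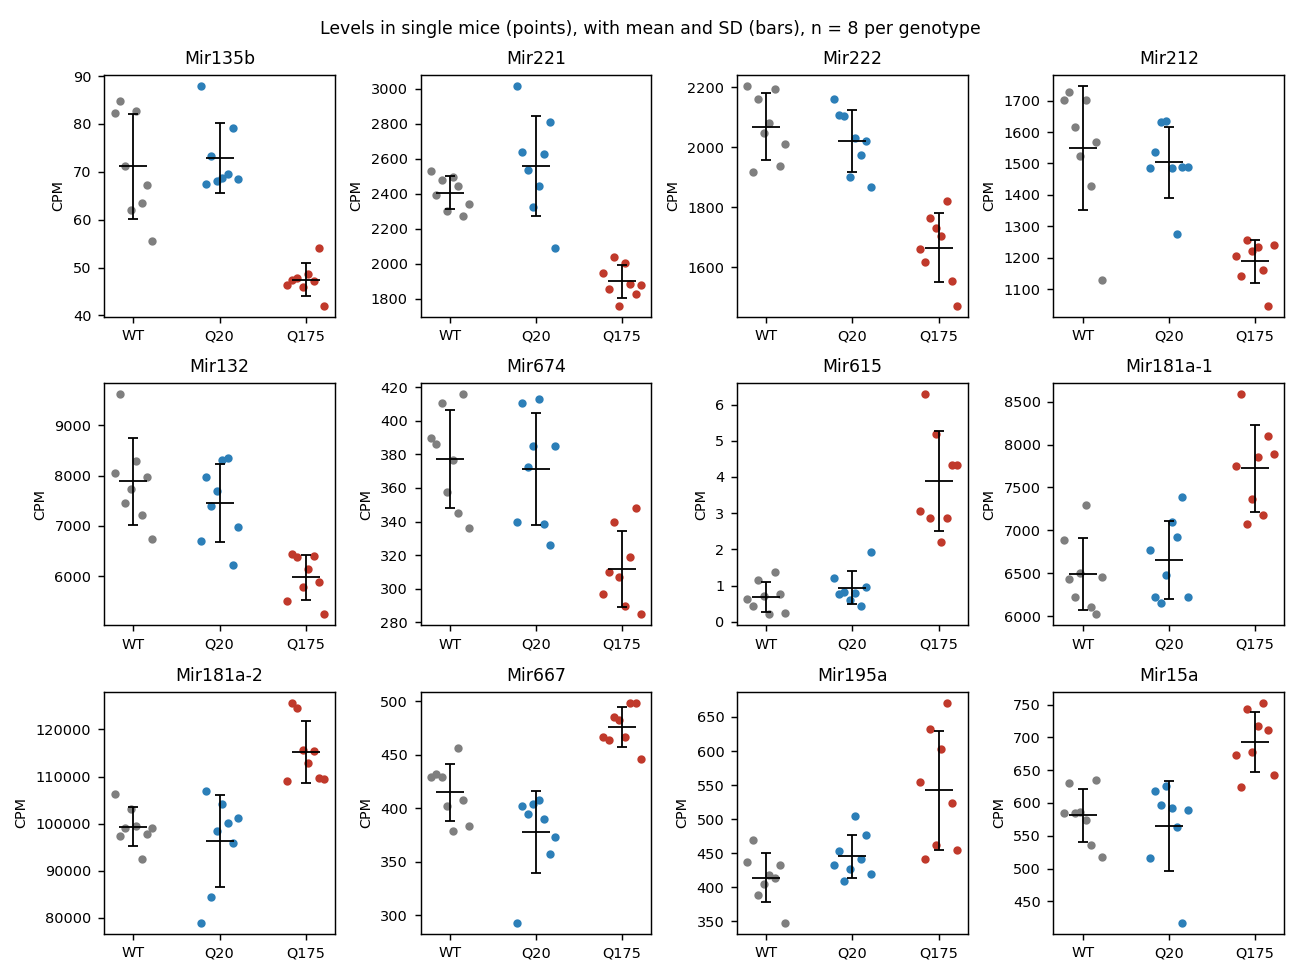
CPM in single mice for the 6 lower and the 6 higher microRNAs with the smallest p, by genotype, with the mean and SD over 8 mice. Q175 values (red) lie wholly outside the control values for Mir135b, Mir221, Mir222, Mir615 and Mir181a-2 and overlap with them in part for the others.

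Neuron-enriched microRNAs were among the lower ones. Of 12 tested members of that list 3 were lower, 9 did not pass and none was higher, where 6.73% of all microRNAs tested were lower. The median log2 fold change was -0.09 against -0.01 over all microRNAs tested. Mir128-1, in an intron of R3hdm1, changed by -0.16 ± 0.05 and Mir128-2, in an intron of Arpp21, by -0.20 ± 0.04. These are 2 of the 3, and their mature 3′ strand is identical, so reads of that strand cannot be told apart. Summed over both loci, Mir128 changed by -0.17 ± 0.04 (adjusted p = 0.0136). Mir124a-3 was lower as well (-0.42 ± 0.14, adjusted p = 0.0447), at 67.01, 105 and 148 CPM in controls and 51.5, 73.8 and 108 CPM in Q175, with 9 controls inside the Q175 range. Mir124a-2 had +0.25 ± 0.26, and the abundant Mir124a-1, outside the study's list, had -0.16 ± 0.06 (adjusted p = 0.159 in the fit of all named microRNAs). Summed over Mir124a-2 and Mir124a-3, Mir124a changed by -0.36 ± 0.12 and did not pass (adjusted p = 0.0548). No Mir124 locus passed in the fit of all named microRNAs. Mir9-2, Mir9-3, Mir137, Mir138-1, Mir138-2, Mir153, Mir218-1 and Mir218-2 were not DE. In tissue RNA, fewer cells of a type and less of a microRNA per cell cannot be told apart.

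Several lower microRNAs were the only DE members of their family. Mirlet7i, at 6003 to 7718 CPM in controls and 5556 to 6003 CPM in Q175, changed by -0.18 ± 0.04 (adjusted p = 0.00213), while the median of the 8 tested let-7 loci was 0.00. The let-7 family limits proliferation and is among the most abundant in brain. Mir148a changed by -0.31 ± 0.09 (adjusted p = 0.0163), whereas its relatives Mir148b and Mir152 had positive fold changes that did not pass. Mir34a, a target of p53, changed by -0.27 ± 0.08 (adjusted p = 0.031) with 10 controls inside the Q175 range. Mir301b changed by -0.31 ± 0.10 (adjusted p = 0.0398), and its cluster neighbour Mir130b by -0.16 ± 0.06 without passing. Mir375, first described in pancreatic islets, changed by -0.39 ± 0.08 (adjusted p = 0.00136), from a control median of 85.7 to 69.6 CPM. The remaining lower microRNAs were Mir3093 (-0.40 ± 0.10), Mir3102 (-0.30 ± 0.09) and Mir344d-1 (-0.23 ± 0.06). All 8 tested loci of the Mir344 group, which spans chr7:61683124-62085310, had negative fold changes with a median of -0.19, yet Mir344d-1 was the sole member to pass.

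Among the higher microRNAs the Mir15/Mir16/Mir195 family stood out by number. Of 5 tested loci that share the seed, 4 were higher, where 5.5% of all microRNAs tested were, with a median log2 fold change of 0.27, and the remaining one, Mir16-2, had 0.15 ± 0.11. Mir195a (ENSMUST00000083477, chr11:70235042-70235135) was at 348, 429 and 505 CPM in controls and 441, 539 and 671 CPM in Q175 (0.34 ± 0.07, adjusted p = 0.00136). Mir15a (ENSMUST00000175266) was at 417, 585.6 and 635 CPM in controls and 624, 694 and 753 CPM in Q175 (0.27 ± 0.06, adjusted p = 0.00136), and its neighbour Mir16-1 within Dleu2 at 5462, 7071 and 8877 CPM and 7123, 8628 and 10342 CPM (0.27 ± 0.06, adjusted p = 0.0051). Every Q175 mouse lay above the control median for each of these. WT F2 was the highest control for Mir16-1. Mir15b, in an intron of Smc4, rose from a control median of 31.3 to 37.6 CPM (0.27 ± 0.08, adjusted p = 0.0237). Mir16-1 and Mir16-2 give the same mature 5′ strand, and their sum changed by 0.26 ± 0.06 (adjusted p = 0.00739). With the summed choroid plexus or epithelial list as a covariate, described below, Mir195a and Mir15a passed, and Mir16-1 (adjusted p = 0.124 and 0.0756) and Mir15b (adjusted p = 0.0886 and 0.179) did not.

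Single members of the Mir17 polycistron and of its X-linked relative were higher. The polycistron encodes Mir17, Mir18, Mir19a, Mir20a, Mir19b-1 and Mir92-1 and is known for promoting proliferation. At chr14:115043671-115044391, within the exon of Mir17hg, 5 loci were tested and 2 were higher, with a median log2 fold change of 0.35. Mir17 was at 32.0, 34.0 and 40.7 CPM in controls and 37.3, 41.0 and 47.6 CPM in Q175 (0.24 ± 0.05, adjusted p = 0.00284). Mir20a was at 22.2, 28.0 and 31.5 CPM in controls and 26.2, 31.6 and 38.5 CPM in Q175 (0.23 ± 0.07, adjusted p = 0.0333). Mir18 (0.35 ± 0.14), Mir19a (0.37 ± 0.16) and Mir19b-1 (0.87 ± 0.85) did not pass. In the X-linked group Mir92-2 was higher (0.26 ± 0.07, adjusted p = 0.0145), and Mir363 (-0.01 ± 0.28), Mir19b-2, Mir20b (-0.04 ± 0.39) and Mir106a (0.63 ± 0.47) did not pass. Mir19b-2 lay just outside the threshold (0.23 ± 0.08, adjusted p = 0.0657), and the sum of both Mir19b loci changed by 0.27 ± 0.08 (adjusted p = 0.0176). In contrast, the paralogs with the same seed at Mcm7, Mir93 and Mir106b, had 0.05 ± 0.04 and 0.04 ± 0.06.

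Mir181a-2 was the most abundant of all microRNAs tested. It lies at chr2:38852735-38852810 on the strand opposite to Nr6a1. Its level was 78985, 99090.4 and 106950.0 CPM (lowest, median and highest) in controls and 109142, 114151 and 125688 CPM in Q175, without overlap (ENSMUST00000083489, 0.24 ± 0.04, adjusted p = 0.000596). Mir181a-1 (ENSMUST00000083631, chr1:137966455-137966541) was at 6025, 6469.9 and 7383 CPM in controls and 7069.6, 7798 and 8587 CPM in Q175 (0.23 ± 0.04, adjusted p = 0.000358), with 3 controls inside the Q175 range. The 5′ strand of both is identical, and how the authors' counting divided shared reads is not given in the sources used here. Summed over the loci, Mir181a changed by 0.24 ± 0.04 (adjusted p = 0.000269). The other family members, Mir181b-1, Mir181b-2, Mir181c and Mir181d, had fold changes of 0.07 to 0.13 on the log2 scale and did not pass, so all 6 were positive and 2 were DE. The family is abundant in neurons and lymphocytes.

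**Figure D3:**
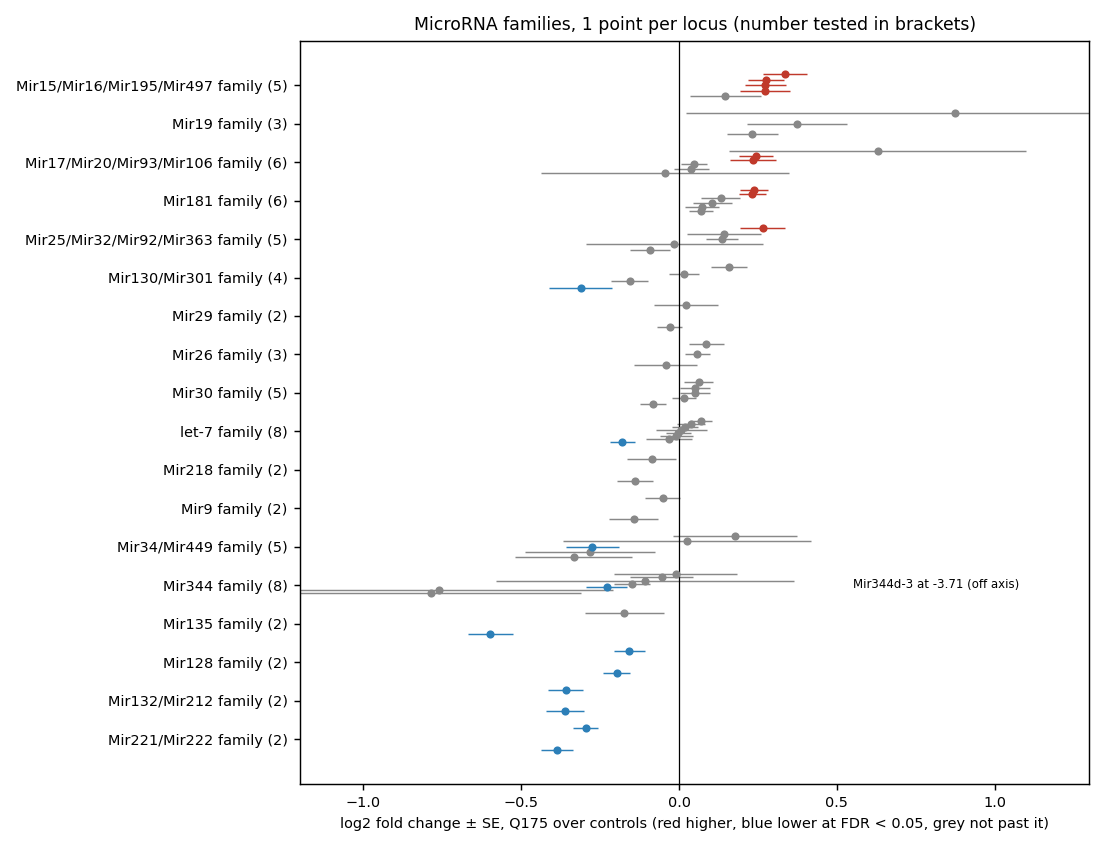
Log2 fold change with its SE for each tested locus of 18 microRNA families, red where higher and blue where lower in Q175 at FDR under 0.05. Called loci of 1 family lie on 1 side of zero throughout, and the let-7, Mir30, Mir26 and Mir29 loci other than Mirlet7i sit close to zero.

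Mir615 had the largest rise among the calls and the smallest p of all microRNAs tested (ENSMUST00000102056, chr15:103014910-103015001, plus strand). It lies in an intron of Hoxc5 within the HoxC cluster. It was counted 1 to 9 times in control libraries and 10 to 28 times in Q175 libraries. In CPM it was at 0.213, 0.767 and 1.92 in controls and 2.19, 3.69 and 6.29 in Q175, so every Q175 mouse lay above every control. The log2 fold change was 2.21 ± 0.25 (adjusted p = 6.49e-07), and it was 2.15 within lane 6 and 2.22 within lane 7. Hox genes pattern the body axis and are silent in most of the adult forebrain. The other microRNAs of the Hox clusters on the list, Mir10a (0.14 ± 0.13) and Mir10b (0.42 ± 0.20), did not pass. Mir210, the hypoxia-responsive microRNA, rose from a control median of 65.1 to 80.4 CPM (0.27 ± 0.07, adjusted p = 0.015), with 11 controls inside the Q175 range.

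The Dlk1-Dio3 region on chromosome 12 is an imprinted domain whose maternal allele gives one of the largest microRNA clusters of the genome. Its largest group of loci at most 200 kb apart, at chr12:109571990-109747960, held 36 tested loci. Of these 3 were higher and none was lower, a share near the 5.5% higher among all microRNAs tested, with 26 positive fold changes and a median of 0.06. Mir667 (ENSMUST00000102441) was at 293, 402 and 457 CPM in controls and 446, 474 and 499 CPM in Q175 (0.26 ± 0.05, adjusted p = 0.00136), and 1 control, WT M2, lay inside the Q175 range. Mir539 had 0.25 ± 0.08 (adjusted p = 0.0375). Mir300 had the smallest change of all calls, 0.08 ± 0.03 (adjusted p = 0.0447). Mir1247, from the Dio3os transcript farther along the region, lies more than 200 kb from that group and was lower. It was at 4.61, 7.496 and 17.3 CPM in controls and 2.86, 4.56 and 6.42 CPM in Q175 (-0.91 ± 0.23, adjusted p = 0.00962). The remaining higher microRNAs were Mir3059 (0.26 ± 0.07), Mir330 (0.16 ± 0.05), Mir3061 (0.24 ± 0.07) and Mir467d (0.45 ± 0.13).

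Large falls were seen in microRNAs that lie in introns of Htr2c, the serotonin receptor gene, and in Mir204, in an intron of Trpm3. Both host genes are strongly expressed in choroid plexus. In the Htr2c group, at chrX:147002259-147158321, Mir1912, Mir1298 and Mir448 were lower, Mir764 and Mir1264 had negative fold changes that did not pass, and the median was -1.40. Mir448 (ENSMUST00000083516) was at 14.9, 32.5 and 131 CPM in controls and 9.88, 14.4 and 21.7 CPM in Q175 (-1.52 ± 0.41, adjusted p = 0.0163). Mir1298 was at 124, 329 and 1306 CPM in controls and 126, 181 and 224 CPM in Q175 (-1.40 ± 0.43, adjusted p = 0.0375), and Mir1912 at 0.304, 2.99 and 12.3 CPM and 0.219, 1.02 and 1.98 CPM (-1.86 ± 0.59, adjusted p = 0.0398). Mir204 was at 2498, 3679 and 11249 CPM in controls and 2502, 2664 and 3026 CPM in Q175 (-0.72 ± 0.23, adjusted p = 0.0398). For all of these the lowest controls were near the Q175 mice, and the fold change came from controls with high values.

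The choroid plexus and ciliated cell list holds Mir204, Mir1298, Mir1912 and Mir448, so its sum was bound to move with them. Mir204 and Mir211 together had a control median of 3745 CPM, against 4641 CPM for the list. The list summed to 3314 to 3953 CPM in Q175, 3722 to 13388 CPM in Q20 and 3369 to 7066 CPM in WT. Of the 16 controls 11 lay above every Q175 mouse, while none lay below. Q20 M2 had the highest sum. None of the 11 members of the list was at 0 in either group. Of 10 tested members 3 had positive fold changes that did not pass, Mir211 (0.28), Mir449a and Mir449c. In the fit of all named microRNAs, described below, 1 of the 11 members was lower. In the main fit 4 were lower (Mir1298, Mir1912, Mir204 and Mir448), where 6.73% of all microRNAs tested were, and none was higher. With WT mice as the only controls none of these 4 passed, the adjusted p being 0.186 for Mir1298, 0.165 for Mir1912, 0.135 for Mir204 and 0.074 for Mir448. With the summed level of the list as a covariate, an alternative added after seeing the data, the fit called 23 microRNAs in place of 40, of which 19 were among the 40. Among those 19 were Mir615, Mir135b, Mir221, Mir222, Mir212, Mir132, Mir181a-1, Mir181a-2, Mir674, Mir667, Mir195a and Mir15a, the 12 microRNAs shown by mouse in the plot of single mice. The other 21 calls were lost, 17 of them outside the choroid plexus list: Mirlet7i, Mir124a-3, Mir128-1, Mir301b, Mir3102 and Mir34a among the lower, and Mir15b, Mir16-1, Mir20a, Mir92-2, Mir210, Mir300, Mir539, Mir3059, Mir3061, Mir330 and Mir467d among the higher. These 17 kept 67.6% to 111% of their log2 fold change (median 84.9%), with adjusted p from 0.0618 to 0.382. The 4 choroid plexus members had log2 values between -0.23 and 0.03 in that fit, where they also entered the covariate. The list sum itself differed between Q175 and controls, so this fit cannot separate choroid plexus content from genotype. The part of choroid plexus content in the other results was not tested.

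The epithelial and olfactory list was lower in sum by a like amount, its mean sum being 37.3% lower in Q175 than in controls against 38.8% for the choroid plexus list. It summed to 232 to 1030.5 CPM in Q175 and 360 to 1773 CPM in controls, 4 of which lay above every Q175 mouse, and none of its 8 tested members was DE although all 8 fold changes were negative, with a median of -0.72. With its summed level as a covariate 23 microRNAs passed, 21 of them among the 40. The same limit holds for this fit, since the mean of this sum also differed between the groups. The neuron-enriched list summed to 101075 to 113614 CPM in Q175 and 108845 to 126152 CPM in controls, 11 of which lay above every Q175 mouse and none below. The list holds Mir128-1, Mir128-2 and Mir124a-3, called in these same libraries, so its sum was bound to move with them. The Mir128 loci together averaged 49690.5 CPM in controls and 43430 CPM in Q175, against 116723 and 107100 CPM for the whole list. No tested member of the oligodendrocyte (2), microglial and inflammatory (3), endothelial and smooth muscle (3), erythroid (1), liver (4) or muscle (4) lists was DE. The 5 microRNAs made without Drosha were not DE either.

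**Figure D4:**
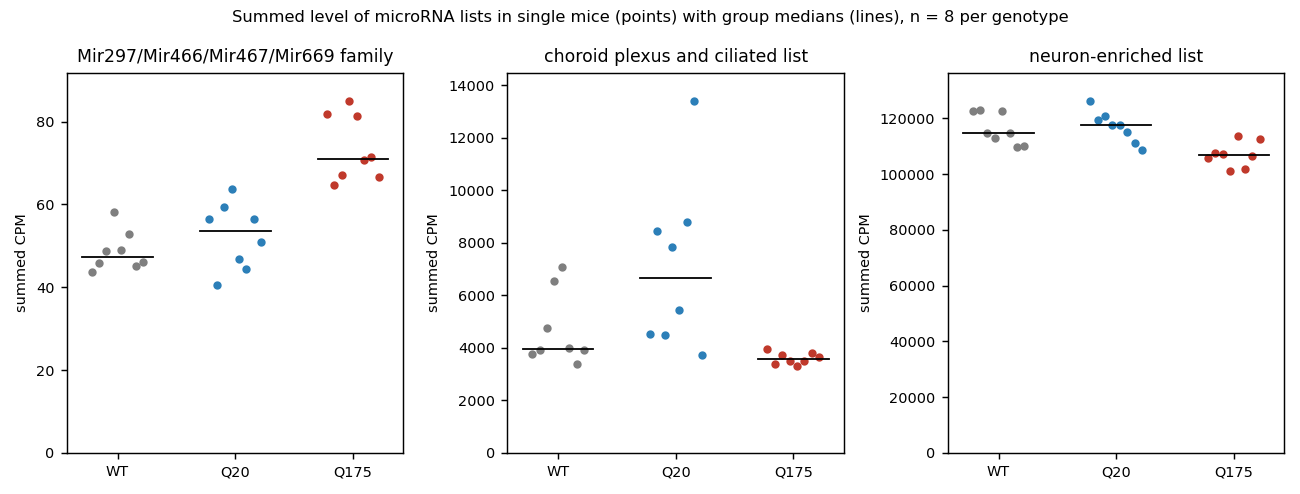
Summed CPM in single mice (points) and group medians (lines) for the Mir297/Mir466/Mir467/Mir669 family, the choroid plexus and ciliated cell list and the neuron-enriched list, 8 mice per genotype, with vertical axes from 0. All Q175 sums lie above the control sums for the first, and for each of the other lists 11 of 16 controls lie above every Q175 mouse while the rest overlap with them. Each sum holds microRNAs called in these same libraries.

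Calls within 1 genomic cluster always had the same direction. Loci at most 200 kb apart formed 215 groups, 45 of which held 2 or more tested microRNAs (157 in all) and 170 of which held 1. The 40 calls were divided much as the 157 and 170 tested microRNAs were, 20 in clusters of 2 or more and 20 at single loci. Over all microRNAs tested 12.2% passed. Of the 45 clusters 12 held a call, 6 held 2 or more, and 0 held calls in both directions. Of the 21 seeds shared by 3 or more tested loci, 11 had a called locus, 3 had 2 or more and none had calls in both directions. Clusters and seeds with more loci have more chances to hold a call, and these counts were not tested against that. Loci inside a gene on the same strand were 66.1% of those tested, 61.1% of the higher and 59.1% of the lower. Median GC content of the hairpins, where RefSeq held one, was 50% over 297 tested, 46.1% over 15 higher and 53.6% over 20 lower microRNAs.

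**Figure D5:**
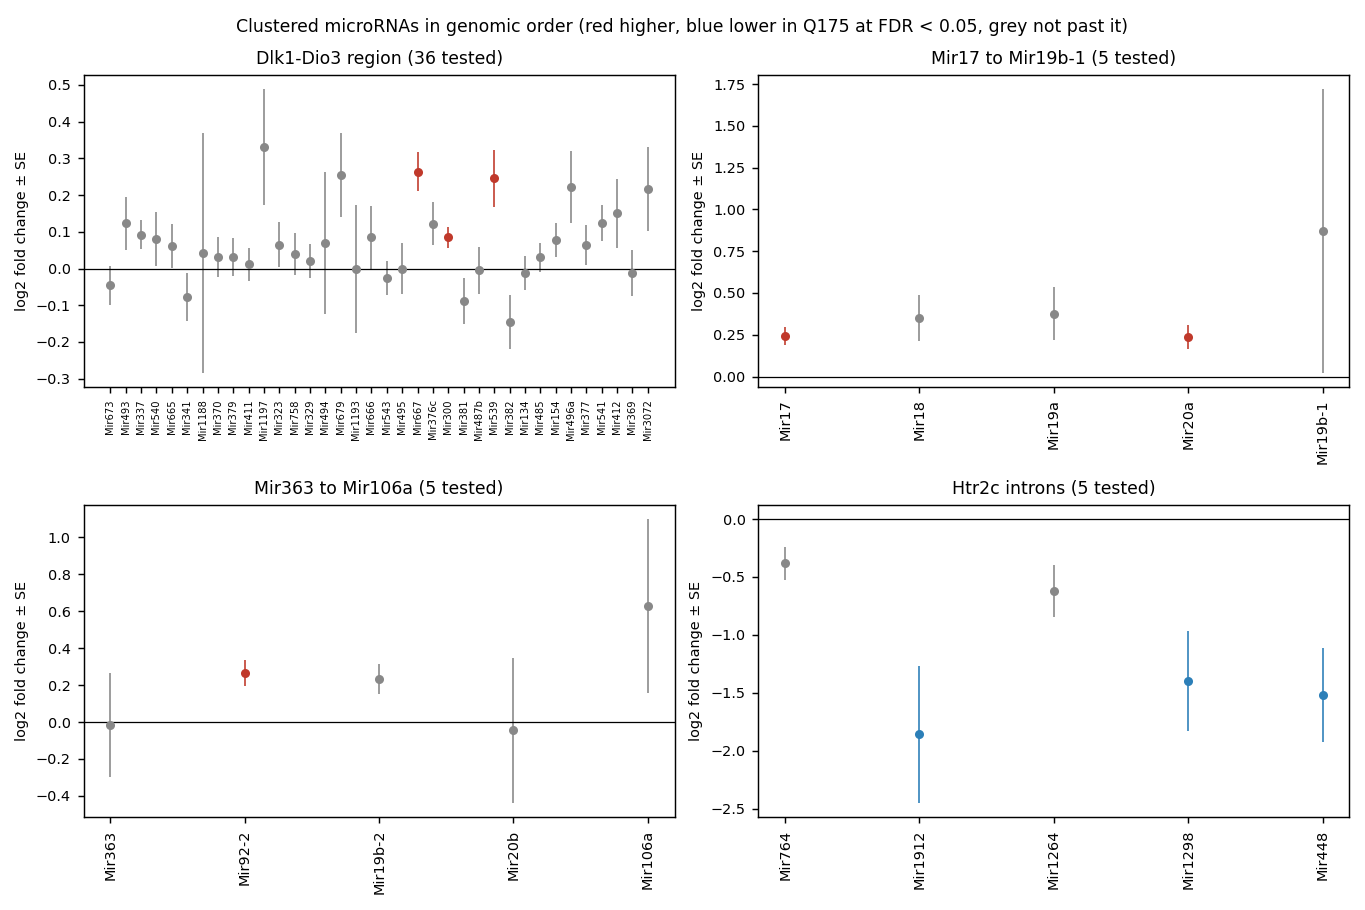
Log2 fold change with its SE for the tested members of 4 genomic clusters in genomic order, red where higher and blue where lower in Q175 at FDR under 0.05. The Htr2c members are all below zero and the Mir17 cluster members all above it. The 36 members of the cluster in the Dlk1-Dio3 region, which does not include Mir1247, lie on both sides with 3 higher.

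Neighbouring called microRNAs of a cluster did not all vary together from mouse to mouse. Correlations of log2 CPM were computed within groups for 8 neighbouring pairs, 16 relations in all, with exact permutation tests over the 8 Q175 mice and 100000 permutations over the 16 controls. Mir16-1 and Mir15a were correlated in controls (Pearson r = 0.80, permutation p = 0.0007, adjusted p = 0.0028; Spearman rho = 0.69, p = 0.0044, adjusted p = 0.0183) and in Q175 (r = 0.94, exact permutation p = 0.000521, adjusted p = 0.00278; rho = 0.90, p = 0.00456, adjusted p = 0.0183). Without the 2 mice farthest from the median of Mir16-1, r was 0.49 and 0.85. Mir1298 and Mir448 were correlated in controls (r = 0.98 and rho = 0.98, permutation p = 1e-05 for both, the smallest 100000 permutations can give, adjusted p = 8e-05) and in Q175 (r = 0.88, exact permutation p = 0.00404, adjusted p = 0.0129; rho = 0.83, p = 0.0154, adjusted p = 0.0492), and r was 0.98 and 0.90 without 2 mice. Mir1912 and Mir1298 were correlated in controls (r = 0.95 and rho = 0.94, permutation p = 1e-05 for both, adjusted p = 8e-05; r = 0.96 without 2 mice) but in Q175 the relation did not pass (r = 0.57, exact permutation p = 0.141, adjusted p = 0.225; rho = 0.45). For Mir212 and Mir132 r was 0.43 in controls and -0.19 in Q175, for Mir17 and Mir20a -0.05 and -0.08, and for Mir221 and Mir222 0.57 and 0.25, none of which passed after adjustment. Depth and base composition are shared by the members of a pair in each library.

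MicroRNAs outside the study's list were tested in a fit of all 580 named microRNAs, which called 38 (6.55%), 20 lower and 18 higher (3.1%). Of these, 8 were outside the list, so not all of the 40 calls passed in this fit. Calls went from 4 to 1 in the choroid plexus and ciliated cell list and from 3 to 2 in the neuron-enriched list. They went from 2 to 1 in the Mir17/Mir20/Mir93/Mir106 family. Both loci of the Mir221/Mir222, Mir132/Mir212 and Mir128 pairs stayed called. The abundant microRNAs outside the list, Mir127 (0.06 ± 0.05), Mir22 (-0.03 ± 0.04), Mir434 (0.06 ± 0.06), Mir27b (-0.09 ± 0.04) and Mir30e (0.01 ± 0.04), were not DE. Mir497b, which lies beside Mir195a on the opposite strand, was higher, at 375, 557 and 693 CPM in controls and 612, 709.7 and 923 CPM in Q175 (0.38 ± 0.08, adjusted p = 0.0017). Mir92-1, the last member of the Mir17 polycistron, was also higher (0.19 ± 0.06, adjusted p = 0.042), and Mir92-2 has the same mature 3′ strand. Mir133a-1, a muscle microRNA, was lower (-0.19 ± 0.06, adjusted p = 0.0382). Mir3110 was lower on very few counts and was at 0 CPM in all Q175 libraries.

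The 4 remaining calls outside the list, with Mir467d inside it, belong to the Mir297/Mir466/Mir467/Mir669 family, repeat-derived loci of which most lie together on chromosome 2, at chr2:10466663-10518279, where Mir467d is in an intron of Sfmbt2. Of 42 family loci with a count, 5 were higher and none was lower, 31 fold changes were positive and the median was 0.47, against -0.02 over all 580. The 5 calls were among the 37 loci on chromosome 2, of which 30 had positive fold changes with a median of 0.53, and of the 5 loci on other chromosomes 1 was positive. Mir669c was at 4.59, 6.44 and 11.5 CPM in controls and 9.70, 10.8 and 13.9 CPM in Q175 (0.74 ± 0.13, adjusted p = 0.00016). Mir467e had 0.91 ± 0.16 (adjusted p = 0.000312), Mir467a-1 had 0.58 ± 0.11 (adjusted p = 0.000911) and Mir466g had 0.97 ± 0.25 (adjusted p = 0.0116). These loci are near-identical copies that share reads, so values of single loci are uncertain. Their sum ran from 40.5 to 63.7 CPM over the 16 controls and from 64.8 to 84.9 CPM in Q175 without overlap. Tested as 1 feature, an alternative added after seeing the data, the sum changed by 0.57 ± 0.08 (adjusted p = 3.01e-06). It holds the 5 called loci and was bound to move with them, so it gives no separate support.

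Females and males were compared in their response. A test of the sex by Q175 interaction at 10 months called none of 327 microRNAs (0.0%, edgeR), with 21 at an unadjusted p under 0.05 and the smallest adjusted p at 0.429. The median SE of the difference was 0.17 on the log2 scale, with 4 Q175 mice per sex.

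At 2 months none of 327 microRNAs differed between Q175 and controls (0.0%, edgeR), with 19 at an unadjusted p under 0.05. The difference between the responses at 10 and at 2 months was tested as an interaction and passed for 17 of 328 microRNAs (5.18%), all of them among the 40 calls, with libraries of the 2 ages run mostly in different lanes. The 11 with a more negative change at 10 months included Mir135b (-0.59 ± 0.09, adjusted p = 5.18e-06), Mir221 (-0.39 ± 0.08, adjusted p = 0.000812) and Mir212 (-0.32 ± 0.07, adjusted p = 0.00108), and Mir132 changed by -0.05 ± 0.05 at 2 months. The 6 with a more positive change were Mir615 (1.79 ± 0.44, adjusted p = 0.00741), Mir181a-1, Mir181a-2, Mir667, Mir15a and Mir92-2. Mir148a differed by -0.45 ± 0.11 (adjusted p = 0.00576), with a fold change of 0.17 ± 0.06 at 2 months. The 10-month libraries enter both this test and the comparison at 10 months.

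Q175 was also compared with Q140, the line from which it derives, at the same age (8 mice each, from separate cages). Of 324 microRNAs 15 differed (4.63%), 11 lower and 4 higher in Q175, and with lane as a covariate 4 did: Mir375, Mir667, Mir615 and Mir221. Q140 libraries were in lanes 7 and 8 only. Mir615 was at 0.715, 1.05 and 1.26 CPM in Q140 (lowest, median and highest) and at 2.18, 3.70 and 6.16 CPM in Q175 (1.88 ± 0.23, adjusted p = 6.09e-05). Mir667 was at 371, 406 and 441 CPM and 449, 480 and 499 CPM (0.22 ± 0.05, adjusted p = 0.012). Mir221 was at 2013, 2149 and 2373 CPM and 1771, 1887 and 2019 CPM (-0.21 ± 0.04, adjusted p = 0.0132), and Mir375 changed by -0.60 ± 0.11 (adjusted p = 0.00712). The others were Mir135b, Mir132, Mir222, Mir344d-1, Mir204, Mir448, Mir1298 and Mir1912, lower, Mir467d, higher, and 2 microRNAs not DE against controls, Mir194-2 (-0.29 ± 0.08) and Mir29b-1 (0.35 ± 0.10).

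Levels in the intermediate genotypes at 10 months, set side by side, showed the order of the means. Mir135b averaged 70.4 ± 10.4 CPM in WT and 72.4 ± 7.31 CPM in Q20 (SD, n = 8 in each genotype). With lengthening repeat it averaged 67.5 ± 6.67 CPM for Q80, 70.02 ± 5.75 CPM for Q92, 62.2 ± 6.38 CPM for Q111, 57.9 ± 6.14 CPM for Q140 and 47.4 ± 3.03 CPM for Q175. Mir181a-2 averaged 98352, 95698, 99910.3, 100878, 106879, 111855 and 115056 CPM in the order WT, Q20 and then rising repeat length. Mir615 averaged between 0.688 and 1.04 CPM in all genotypes other than Q175, where it averaged 3.88.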

How the data were processed

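Total RNA from cortex (miRNeasy) was made into small RNA libraries and sequenced. Per the methods, the authors aligned reads to mm10 with STAR and counted them with HTSeq, and the submitters' processing notes name CASAVA 1.8.2. The deposited values are estimated counts per Ensembl transcript, and 48.1% of the non-zero values in the 24 libraries are not whole. The tool that divided reads between loci is not given in the sources used here. Values were rounded to whole numbers.

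The table holds 1626 transcripts, 638 of them named microRNAs, and unnamed transcripts took 0.645% to 3.32% of a library. All of its per-sample columns were matched to samples. The 329 matched names of the study's list of 480 were fitted with edgeR 4.0.16 (R 4.3.3, quasi-likelihood, TMM, sex of the cage as covariate), keeping those with at least 1 count, and p-values were adjusted over all tested. CPM are TMM-normalised and computed here. Pair correlations used log2(CPM + 0.5). DESeq2 1.42.0 was an alternative, as were other normalisations, filters, feature sets, covariates, controls, single lanes, a replicate block and leaving out each mouse. The fit was also run on counts simulated without cage or lane effects, so that run cannot speak to such effects in the calls. The microRNAs and lists were chosen with earlier results of these data known. Named microRNAs are those past an FDR of 0.05, with full values for the 6 higher and 6 lower with the smallest p, tested members of the lists and of clusters with a call, the 5 most abundant, and the largest change per abundance class. The outlier steps of the methods were run as an alternative only. Sequences and hairpins are from RefSeq (GRCm38.p6).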

Additional observations from a re-analysis of the deposited data

Results flagged for a closer look

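In 7 of 120 groups of 8 mice of 1 genotype, 1 mouse stood far from the other 7 in a called microRNA, where chance gives about 1 in 20 groups. Q20 M2 was at 11249 CPM for Mir204 (others 2723 to 6514), at 114 CPM for Mir3102 (63.5 to 76.3) and at 11375 CPM for Mir128-2 (13379 to 15128). WT F2 was at 8877 CPM for Mir16-1 (6973 to 7588) and at 6030.1 CPM for Mirlet7i (6406 to 6614). Q20 M1 was at 1275 CPM for Mir212 (1485 to 1634), and Q20 F1 was at 293 CPM for Mir667 (357 to 408).

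The change in Q175 differed between 10 and 2 months, by a test of the difference itself (edgeR, FDR under 0.05), for 17 microRNAs. On the log2 scale the change at 10 months minus that at 2 months was -0.59 for Mir135b, -0.39 for Mir221, -0.29 for Mir222, -0.32 for Mir212, -0.28 for Mir132, -0.17 for Mirlet7i, -0.25 for Mir674 and -0.45 for Mir148a. It was -2.29 for Mir1912, -1.64 for Mir1298 and -1.78 for Mir448. It was 0.26 for Mir181a-1, 0.24 for Mir181a-2, 0.32 for Mir667, 0.27 for Mir15a, 1.79 for Mir615 and 0.28 for Mir92-2.

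Outside the study's list, 6 microRNAs were higher in Q175 than in controls in the fit of all named microRNAs. Their log2 fold changes were 0.38 for Mir497b, 0.19 for Mir92-1, 0.58 for Mir467a-1, 0.91 for Mir467e, 0.74 for Mir669c and 0.97 for Mir466g.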

How the results depend on the processing

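The count of 40 microRNAs (22 lower, 18 higher) stayed between 29 and 43 under other normalisations, DESeq2, filters, named-microRNA sets, sex labels, lane as covariate, all genotypes in 1 fit and Q20 as only controls. It was 26 (10 lower, 16 higher) with all transcripts fitted, 22 with WT as only controls, 5 in lane 6 and 2 in lane 7, which hold fewer mice. It was 23 with the choroid plexus list and 23 with the epithelial list as covariate, both chosen after seeing the data. Leaving out 1 mouse gave 28 to 44. Of the 40 calls 14 passed under every alternative fit other than single lanes and the removal of single mice. The log2 fold change of Mir1298 turned to 0.0309 with the choroid plexus list, which includes it, as covariate. The 15 calls against Q140 became 4 with lane as covariate, and 21 without the Q140 library that stood apart. Of 1800 comparisons of single microRNAs with their alternatives, 1453 kept direction and call, 346 lost the call and 1 changed sign.

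The labels tie replicate numbers to no shared litter or day, and not every pair of same-numbered mice deviated together: correlations were over 0.1 in 1 of 7 pairs between Q175 and Q20 (-0.40 to 0.55) and in 5 of 8 between Q175 and WT (-0.23 to 0.40, median 0.17). With the replicate block 33 microRNAs passed against controls, 0 between Q20 and WT and 11 against Q140.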
